A study of Mus musculus with 6 samples.

Results

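Expression of 10 genes of the AMPA receptor was examined in the hippocampus of mice carrying the G82R/L85P variant of Slc1a2. The set held the pore-forming subunits Gria1, Gria2, Gria3 and Gria4, the transmembrane AMPA receptor regulatory proteins (TARPs) Cacng2, Cacng3 and Cacng8, the cornichons Cnih2 and Cnih3, and Shisa9. They were taken by gene name from the deposited expression table, and all 10 were found among its 54532 genes. Each name matched 1 row. Slc1a2 encodes GLT-1, the main glutamate transporter of astrocytes. The transgenic (TG) mice had been made by CRISPR/Cas9 knock-in of both amino acid changes into exon 3 of Slc1a2 on a C57BL/6N background, and the founders were crossed with C57BL/6 mice. The 3 TG libraries were compared with 3 libraries of wild-type (WT) mice, and RNA was sequenced from hippocampal tissue in bulk. Age, sex and whether TG mice carried the change on one or both alleles were not given in the sources used here for the sequenced mice.

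AMPA receptors are tetramers of the GluA subunits encoded by the Gria genes, and they carry most fast excitatory transmission in the brain. A receptor that contains GluA2 edited at the Q/R site by the enzyme encoded by Adarb1 passes little calcium, so the ratio of GluA1 to GluA2 is a property of interest at glutamate synapses. TARPs, cornichons and the Shisa9 product (CKAMP44) are auxiliary subunits that join the pore and shape its trafficking and gating. In the hippocampus the GluA1, GluA2, TARP gamma-8 and CNIH2 proteins are characteristic of pyramidal neurons, and CKAMP44 is prominent in dentate granule cells.

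The level of AMPA receptor transcripts did not differ detectably between WT and TG hippocampus. None of the 10 genes passed an adjusted p of 0.05 in limma across all genes tested (smallest 0.789, for Cacng2), and none had an unadjusted p under 0.05. The background was 2 of 20952 genes tested at the adjusted threshold, which is 0.00955%, and 5.91% at the unadjusted threshold. In 0 of the 10 genes were the WT and TG libraries apart, against 12.1% of all genes tested. Levels were FPKM, that is, sequenced fragments scaled to gene length and to the size of the library, and fold changes are on the log2(FPKM + 0.1) scale. The 95% intervals placed every TG to WT ratio between 0.758-fold and 1.33-fold.

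Sequence before a RefSeq start on GRCm38.p6 was matched for 7 of the 10 genes, and Gria1, Gria3 and Shisa9 were not among the entries. For Gria2, Gria4, Cnih2 and Cnih3 it lies before the gene as the deposited table places it. For Cacng2, Cacng3 and Cacng8 it lies inside the gene, beginning 498, 1002 and 3109 bases after the gene's start, so these 3 windows need not be the promoter. The 250 bases before the start are printed for Cnih2, the most abundant of the 10, for Gria4, at the low end of the set, and for Gria2, the subunit that sets calcium permeability. Letters run 5′ to 3′ on the gene's own strand, and capitals mark matches to the motifs searched on both strands.
Cnih2, chr19:5098522-5098771, minus strand: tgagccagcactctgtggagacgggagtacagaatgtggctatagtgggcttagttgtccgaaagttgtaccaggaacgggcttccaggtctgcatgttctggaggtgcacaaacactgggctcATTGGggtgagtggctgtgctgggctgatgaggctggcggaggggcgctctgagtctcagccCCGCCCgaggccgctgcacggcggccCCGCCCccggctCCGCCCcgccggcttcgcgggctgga
Gria4, chr9:4796235-4796484, minus strand: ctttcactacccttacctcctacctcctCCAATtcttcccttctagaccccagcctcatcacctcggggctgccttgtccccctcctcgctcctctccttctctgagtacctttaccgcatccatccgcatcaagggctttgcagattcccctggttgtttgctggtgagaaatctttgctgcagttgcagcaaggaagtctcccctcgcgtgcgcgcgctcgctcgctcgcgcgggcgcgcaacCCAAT
Gria2, chr3:80802836-80803085, minus strand: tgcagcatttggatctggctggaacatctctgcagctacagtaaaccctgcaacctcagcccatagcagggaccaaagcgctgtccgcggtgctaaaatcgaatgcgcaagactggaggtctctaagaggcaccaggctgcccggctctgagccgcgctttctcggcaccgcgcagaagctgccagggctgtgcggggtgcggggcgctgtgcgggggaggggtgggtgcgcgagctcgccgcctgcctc

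A total of 4 short motifs were searched, none of which contains another. The GC box, GGGCGG, was present in 2 of the 7 windows, with 3 copies in Cnih2 and 1 in Cnih3, and in 32.7% of 32851 promoters of this length. The CCAAT box, with those letters, was also found in 2 of 7, with 2 copies in Gria4 and 1 in Cnih2, and in 33.8% of all. No match was found for the cyclic AMP response element TGACGT, which 6.47% of all promoters held. The TATA box, TATAAA, was likewise not matched in the 7 windows, and 12.4% of all promoters held it. CG dinucleotides differed widely between the 7 windows. Among those before the gene, Cnih3 had 36, Gria2 had 19, Cnih2 had 17 and Gria4 had 16, against a median of 6 over all promoters. The windows inside the gene had 16 in Cacng2, 8 in Cacng3 and 0 in Cacng8. These matches are a description of the letters in these windows.

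Each library held between 16081281 and 18751057 reads on genes, and the 10 genes drew between 822 reads (Cacng3 in TG1) and 18837 reads (Gria1 in WT2) per library. No more than 1.83% of the 50-base windows of any of the 10 (Cacng8) recur in transcripts of another gene in the same orientation, so little of their count could be split between paralogues. Transcripts of the pyramidal neuron gene Neurod6 lay between 71.53 and 90.98 FPKM and those of the granule cell gene Prox1 between 9.814 and 14.43 FPKM, so markers of both hippocampal principal cells were present in every library. Slc1a2 was 202.5, 199.5 and 177.3 FPKM in WT and 222.0, 207.1 and 217.3 FPKM in TG. Every TG library was above every WT library, and groups were apart for 12.1% of all genes tested. The log2 fold change was 0.16 (limma unadjusted p = 0.102, adjusted p = 0.789). A gene level FPKM cannot show the base changes themselves. By Western blot, which measures protein and not RNA, the study reported GLT-1 nearly abolished in TG hippocampus. The libraries stood apart in choroid plexus RNA. The summed FPKM of 9 choroid plexus genes was 57.65 to 82.0 in WT, 65.5 in TG3, 1208 in TG1 and 3823 in TG2, with Ttr alone at 1168 and 3705 FPKM in the latter pair, and none of the 9 was at 0 in any library. In bulk tissue, fewer cells of a type and less RNA per cell cannot be told apart.

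Gria1, which encodes the GluA1 subunit, was the most abundant of the pore-forming genes (ENSMUSG00000020524, chr11:57011387-57330244, plus strand, GRCm38). It was 165.4, 193.0 and 163.3 FPKM in WT and 190.1, 159.7 and 160.0 FPKM in TG. One library of each group, WT2 and TG1, was high, and TG2 and TG3 lay just below the lowest WT library, so the groups overlapped. The means of 173.9 ± 16.6 and 169.9 ± 17.4 FPKM (SD, n = 3 each) gave a log2 fold change of -0.03 (SE 0.11, limma adjusted p = 0.945) and an interval of 0.82 to 1.16-fold. Its mean over the 6 libraries was above that of 99.2% of the genes tested.

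Gria2 encodes GluA2 (ENSMUSG00000033981, chr3:80681450-80802835, minus strand), and its promoter is printed above. Its level was 44.37, 56.77 and 45.01 FPKM in WT and 49.09, 46.54 and 46.73 FPKM in TG. WT2 was the highest library and the 3 TG libraries fell within the WT range. The log2 fold change was -0.03 (SE 0.10, limma adjusted p = 0.952), with an interval of 0.828 to 1.16-fold, and the SD of 6.98 FPKM in WT came mostly from WT2, against 1.42 FPKM in TG.

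Gria3, the GluA3 gene on the X chromosome (ENSMUSG00000001986, chrX:41400854-41678601, plus strand), varied little. In WT it was 20.08, 22.12 and 20.61 FPKM, and in TG 22.15, 19.70 and 21.39 FPKM. The groups interleaved, with a log2 fold change of 0.0091 (SE 0.07, limma adjusted p = 0.982) and an interval of 0.892 to 1.14-fold. Gria4, the GluA4 gene (ENSMUSG00000025892, chr9:4417896-4796234, minus strand), which is known mainly from interneurons and immature pyramidal neurons, had the lowest mean FPKM of the 10, in ranges that overlapped those of Cacng2. It was 9.445, 9.613 and 9.352 FPKM in WT and 9.642, 8.494 and 9.318 FPKM in TG. WT values were nearly equal, TG2 was the lowest library and TG1 the highest. The coefficient of variation over the 6 libraries was 4.53%, the smallest of the 10, and the log2 fold change was -0.05 (SE 0.08, limma adjusted p = 0.872, interval 0.854 to 1.09-fold).

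**Figure D1:**
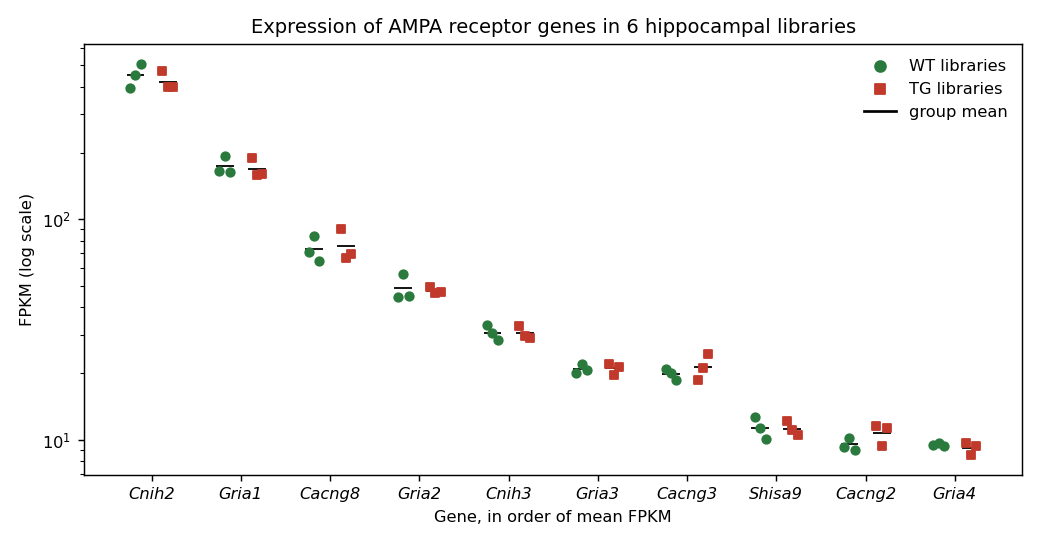
FPKM of the 10 AMPA receptor genes on a log axis in each of the 6 libraries, with WT and TG libraries as separate points and the group mean as a bar. WT and TG points overlap for every gene, while levels range from means of 9.311 FPKM (Gria4) to 437.4 FPKM (Cnih2) over the 6 libraries.

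All 3 TARP genes had a higher mean in TG than in WT in the fit of all 6 libraries, a direction that turned for Cacng8 when WT3 or TG1 was left out, and none passed the test. Cacng8, whose product TARP gamma-8 is enriched in the hippocampus (ENSMUSG00000053395, chr7:3390683-3415648, plus strand), was 70.74, 84.38 and 64.46 FPKM in WT. In TG it was 90.01, 66.63 and 69.56 FPKM. TG1 and WT2 were high and the other libraries lay together, and the groups overlapped. This was the most variable of the 10 genes, with a coefficient of variation of 14.0%, and its log2 fold change was 0.04 (SE 0.14, limma adjusted p = 0.953, interval 0.813 to 1.30-fold). It was -0.05 without WT3, -0.10 without TG1 and -0.06 with TG3 as the only TG library.

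Cacng2, the stargazin gene (ENSMUSG00000019146, chr15:77991748-78120028, minus strand), showed the largest difference among the 10. It was 9.296, 10.22 and 9.005 FPKM in WT and 11.58, 9.385 and 11.24 FPKM in TG. Its exons overlap A730060N03Rik on the opposite strand, which was 0.3269 to 1.069 FPKM. TG1 and TG3 were above every WT library, whereas TG2 lay within the WT range. The log2 fold change was 0.17 (SE 0.10, limma adjusted p = 0.789, unadjusted p = 0.138), with an interval of 0.953 to 1.33-fold. Without TG2, the library with the most choroid plexus RNA, it was 0.26 at an unadjusted limma p of 0.0244, still short of the adjusted threshold. With the choroid plexus score as a covariate it was 0.28 at an unadjusted limma p of 0.0855.

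Cacng3 encodes TARP gamma-3 (ENSMUSG00000066189, chr7:122670492-122769393, plus strand). It measured 20.92, 20.06 and 18.66 FPKM in WT and 18.71, 21.09 and 24.48 FPKM in TG. TG3 was the highest library and TG1 was almost level with the lowest WT library. This gave a log2 fold change of 0.10 (SE 0.11, limma adjusted p = 0.820, interval 0.902 to 1.28-fold). The difference rested on TG3. Without TG3 the log2 fold change was 0.0004, and with each library left out in turn it ran from 0.0004 to 0.19. With TG3 alone against the WT libraries it was 0.30 at an unadjusted limma p of 0.0423, a value that assumes the lone library varies as the WT libraries do.

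Cnih2, the gene of the cornichon that associates with GluA1 receptors of pyramidal neurons (ENSMUSG00000024873, chr19:5092871-5098418, minus strand), had the highest level of the set and ranked 42 among the genes tested. It was 395.7, 452.1 and 510.0 FPKM in WT and 469.8, 397.7 and 399.4 FPKM in TG. WT3 was the highest library and WT1 the lowest, so the WT libraries alone covered the TG range. The log2 fold change was -0.10 (SE 0.13, limma adjusted p = 0.858, interval 0.758 to 1.15-fold), and without WT3 it was -0.0067. Exons of Cnih2 overlap those of Yif1a on the opposite strand, which was 5.333 to 7.318 FPKM, and whether counting used the strand was not given in the sources used here. Summed pyramidal neuron markers also peaked in WT3, at 283.6 FPKM against 229.3 to 256.7 FPKM in the other libraries. Neurod6, Spink8 and Bok peaked there, whereas Fibcd1, Wfs1 and Grik4 peaked in TG1. Summed interneuron markers peaked in WT3 as well, at 518.4 FPKM against 394.4 to 474.0 FPKM, and Sst alone was 355.7 FPKM there. Gad1, Pvalb, Sst and Vip peaked in WT3, whereas Gad2, Slc32a1, Lhx6 and Erbb4 peaked in TG1. Lhx6 was at its lowest in WT3, at 3.524 FPKM. The part of either cell type in the Cnih2 value was not tested.

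The paralogue Cnih3 (ENSMUSG00000026514, chr1:181352628-181460641, plus strand) was far lower. It was 32.99, 30.43 and 28.39 FPKM in WT and 32.96, 29.65 and 29.04 FPKM in TG, nearly the same 3 values in both groups. The log2 fold change was -0.0019 (SE 0.08, limma adjusted p = 0.997, interval 0.872 to 1.14-fold). Shisa9 (ENSMUSG00000022494, chr16:11984113-12270902, plus strand) behaved likewise. It was 12.65, 11.26 and 10.08 FPKM in WT and 12.16, 11.01 and 10.44 FPKM in TG, and the TG libraries lay inside the WT range. Its log2 fold change was -0.0124 (SE 0.10, limma adjusted p = 0.982, interval 0.837 to 1.17-fold). The summed granule cell markers were 69.83 to 89.09 FPKM in WT and 65.73 to 75.59 FPKM in TG, also overlapping.

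**Figure D2:**
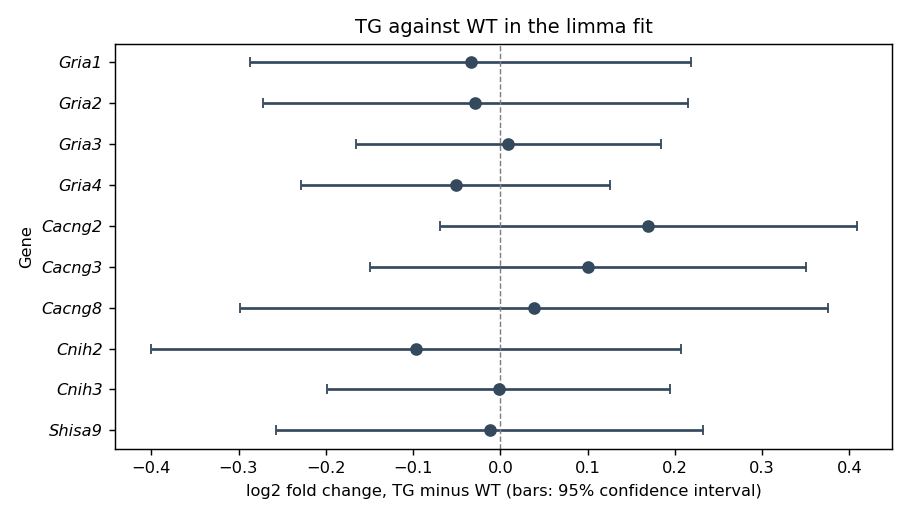
Log2 fold change (TG over WT, log2(FPKM + 0.1) scale) of the 10 genes with 95% intervals from limma. All 10 intervals include 0, and the widest upward estimate is Cacng2 at 0.17.

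Across the 10 genes, 4 had a higher and 6 a lower mean in TG, a split that turned to 7 higher and 3 lower after quantile normalisation because Gria1, Gria2 and Cnih3 changed sign. It was 2 higher and 8 lower without WT3 or without TG1, and 7 higher and 3 lower without TG2. The median log2 fold change was -0.0071, against -0.0020 over all genes tested, and ran from -0.07 to 0.05 with each library left out in turn. By role it was -0.03 for the 4 pore-forming genes, 0.10 for the 3 TARPs and -0.05 for the 2 cornichons. The median size of the log2 fold change was 0.04, against 0.15 over all genes tested and 0.09 over the 5121 genes tested at or above the level of the lowest of the 10. The median SE was 0.10 for the 10 genes, 0.17 for all genes tested and 0.09 for those 5121 genes.

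For these genes the TG libraries did not lie together. In TG1, 9 of the 10 genes were above their 6-library mean, Cacng3 being the exception, and the median deviation was 0.11 on the log2 scale. WT2 was next, with 8 of 10 above and a median deviation of 0.05. TG2 had 1 gene above its mean and WT3 had 2, with median deviations of -0.10 in both. WT1 and TG3 had 4 genes above each. Thus the highest and the lowest of the TG libraries for these genes, TG1 and TG2, were the pair with raised choroid plexus RNA, and the highest library for a gene was TG1 in 4 cases and TG2 in 0 cases. The part of the choroid plexus RNA in these values was not tested beyond the covariate fit, in which no gene of the 10 reached an unadjusted limma p of 0.05 (smallest 0.0855).

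**Figure D3:**
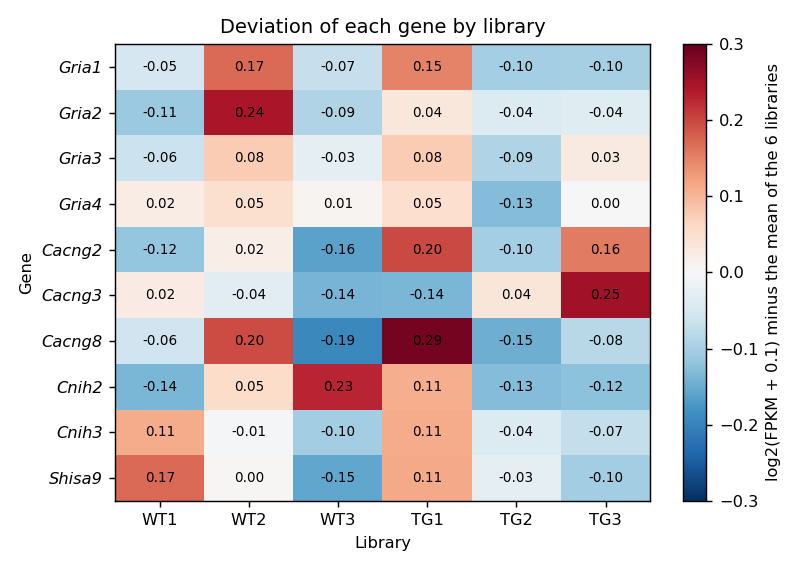
Deviation of each of the 10 genes from its mean over the 6 libraries, in log2(FPKM + 0.1) units, by library. TG1 lies above the mean for 9 of 10 genes and TG2 for 1 of 10, while WT2 lies above it for 8 and WT3 for 2.

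Ordered by level per kilobase over the 6 libraries, Cnih2 (mean 437.4 FPKM) was followed by Gria1 (171.9), Cacng8 (74.3), Gria2 (48.08), Cnih3 (30.58), Gria3 (21.01), Cacng3 (20.65), Shisa9 (11.27), Cacng2 (10.12) and Gria4 (9.311 FPKM). Most neighbours in this order were in the same order in all 6 libraries without overlap of their ranges. The ranges overlapped for 3 neighbouring pairs. Gria3 was above Cacng3 in 3 of 6 libraries, Shisa9 above Cacng2 in 5 of 6, and Cacng2 above Gria4 in 4 of 6, so the order within these pairs is not settled by the spread. The order also depends on the length used. Per longest coding transcript, Gria3 (mean 39.89) was above Cnih3 (31.53) in all 6 libraries, the ranges of Cacng8 and Gria2 overlapped, and Gria4 (10.79) was above Cacng2 (10.12) in 4 of 6. Every one of the 10 lay above at least 75.6% of the genes tested.

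The makeup of the receptor transcripts was compared within each library, where differences in depth cancel. Gria1 was 69.1, 68.6 and 68.5% of the summed FPKM of the 4 Gria genes in WT and 70.1, 68.1 and 67.4% in TG. Gria2 was 18.5, 20.2 and 18.9% in WT and 18.1, 19.9 and 19.7% in TG. The means for Gria2 were 19.2% ± 0.856 and 19.22% ± 0.955 (SD, n = 3 each; exact two-sided permutation p = 1.0). Gria3 made up 8.301% ± 0.404 in WT and 8.529% ± 0.432 in TG (exact permutation p = 0.5), and Gria4 3.762% ± 0.301 and 3.702% ± 0.195 (exact permutation p = 0.8). The log2 ratio of Gria1 to Gria2 was 1.84 ± 0.0684 in WT and 1.84 ± 0.101 in TG (exact permutation p = 1.0).

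Among the 3 TARPs, Cacng8 made up 70.1, 73.6 and 70.0% in WT and 74.8, 68.6 and 66.1% in TG. Cacng3 was 20.7, 17.5 and 20.3% in WT and 15.5, 21.7 and 23.3% in TG. Both shares spread more among TG than among WT libraries, with SDs of 4.5 and 4.08 percentage points in TG against 2.06 and 1.74 in WT, and TG1 and TG3 lay at opposite ends. Cacng2 was 9.3% ± 0.437 in WT and 9.991% ± 0.597 in TG (SD, n = 3 each; exact permutation p = 0.3). The log2 ratio of Cacng8 to Cacng2 was 2.94 ± 0.103 and 2.80 ± 0.166 (exact permutation p = 0.4), and that of Cnih2 to Cnih3 was 3.88 ± 0.292 and 3.79 ± 0.044 (exact permutation p = 0.7). In none of the 10 comparisons were the groups apart, every p adjusted over the 10 was 1.0, and 3 against 3 libraries cannot give a p below 0.1.

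**Figure D4:**
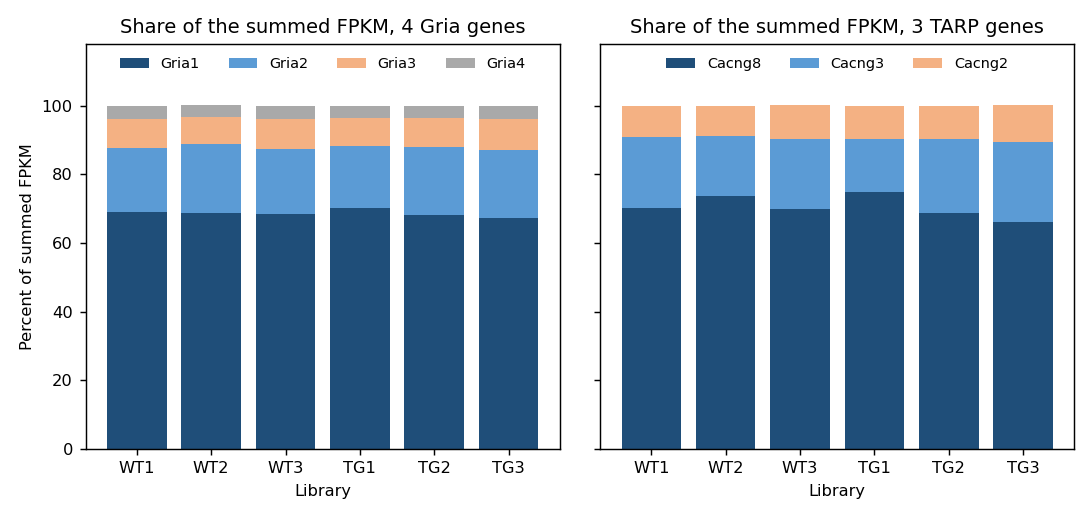
Shares of the 4 Gria genes (percent of their summed FPKM) and of the 3 TARP genes (percent of theirs) in each library. Gria1 holds 67.4 to 70.1% in all 6 libraries, and Cacng8 runs from 66.1% in TG3 to 74.8% in TG1.

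The sums gave the same picture. The 4 Gria genes summed to 253.0 ± 24.7 FPKM in WT and 247.6 ± 20.3 FPKM in TG. For the 3 TARPs the sums were 102.6 ± 11.4 and 107.6 ± 11.8 FPKM, and for the 2 cornichons 483.2 ± 54.8 and 452.8 ± 43.3 FPKM (SD, n = 3 each). The ratio of the TARP sum to the Gria sum was 0.422, 0.407 and 0.387 in WT and 0.444, 0.414 and 0.443 in TG. TG2 lay inside the WT range and the groups overlapped, and this ratio was not among the comparisons tested.

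The shares and the ratio of Gria1 to Gria2 depend on the gene lengths behind FPKM. The deposited length of Gria2 is 15548 bases, 1.5 times its longest coding transcript in GENCODE M21, and that of Gria3 is 9859 bases, 1.9 times its longest. Per longest coding transcript Gria2 was 23.3% of the Gria genes in WT and 23.2% in TG, and Gria1 60.5 and 60.2%. By reads without division by length, Gria2 was 36.4% in both groups and Gria1 50.7 and 50.5%. The log2 ratio of Gria1 to Gria2 was 1.38 in both groups per longest coding transcript. By reads it was 0.48 in WT and 0.47 in TG. The WT and TG values were close on each of these scales, while the Gria2 share itself changed by over 1.5 times between them.

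The 39 other genes of the receptor, in 5 lists, were all tested. Of these, 25 had a higher and 14 a lower mean in TG, 3 had an unadjusted limma p under 0.05 and 0 passed the adjusted threshold. The WT and TG libraries were apart for 3 of the 39, Shisa8, Lrrtm4 and Porcn. Both counts were close to the backgrounds of 5.91% and 12.1%, and are no result about these lists. The median log2 fold change was 0.05 over the 39 genes and -0.0020 over all genes tested. Of all genes tested, 10398 were higher and 10554 lower in TG. Directions within the lists were not tested as sets.

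Among 9 other auxiliary subunits, 6 were higher and 3 lower in TG. The 6 include Prrt2, at 7 to 10 reads a library, with a log2 fold change of 0.06 (SE 0.35). Prrt1, the most abundant, was 86.18 ± 9.07 FPKM in WT and 76.36 ± 7.78 FPKM in TG (limma adjusted p = 0.789). Shisa8, a relative of Shisa9 (also called CKAMP39), was 0.7599, 0.6914 and 0.8851 FPKM in WT and 1.207, 0.9244 and 1.177 FPKM in TG. Every TG library was above every WT library, at 31 to 59 reads a library. Its log2 fold change was 0.45 (SE 0.19, limma unadjusted p = 0.0447, adjusted p = 0.786), and the unadjusted p was under 0.05 in 6 of 16 other fits. It was above 0.05 when WT1, WT2, TG1 or TG3 was left out (log2 fold changes of 0.44, 0.38, 0.39 and 0.40).

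Of 5 genes for assembly in the endoplasmic reticulum, 2 were higher and 3 lower, with a median log2 fold change of -0.0017. Frrs1l, whose product takes part in building the receptor in the endoplasmic reticulum, was 64.35 ± 3.42 FPKM in WT and 64.33 ± 4.56 FPKM in TG (limma adjusted p = 0.997). The 10 genes of extracellular partners split into 5 higher and 5 lower. Olfm1, a secreted receptor partner, was 354.5 ± 18.7 and 333.0 ± 8.8 FPKM (limma adjusted p = 0.804). Lrrtm4, a postsynaptic adhesion protein of dentate granule cells, was 3.106, 3.485 and 3.928 FPKM in WT and 2.642, 3.040 and 2.504 FPKM in TG. All TG libraries were below all WT libraries, and the log2 fold change was -0.35 (SE 0.13, limma unadjusted p = 0.0285, adjusted p = 0.786). The unadjusted p was under 0.05 in 12 of 17 other fits. It was above 0.05 when WT2, WT3, TG1 or TG3 was left out (log2 fold changes of -0.35, -0.27, -0.33 and -0.29).

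Of 12 genes for trafficking and anchoring, 10 had a higher and 2 a lower mean in TG, with a median log2 fold change of 0.05. In this list 1 gene had an unadjusted limma p under 0.05. This was Arc, an immediate early gene whose protein promotes endocytosis of AMPA receptors. Arc was 46.69, 64.91 and 60.33 FPKM in WT and 91.24, 62.94 and 86.65 FPKM in TG. TG1 and TG3 were above every WT library and TG2 lay below WT2, so the groups overlapped. The log2 fold change was 0.48 (SE 0.17, limma unadjusted p = 0.0266, adjusted p = 0.786), and the unadjusted p was under 0.05 in 10 of 17 other fits. Leaving out WT1, WT3, TG1 or TG3 raised it above 0.05 (log2 fold changes of 0.34, 0.52, 0.38 and 0.42). Nsf, the ATPase that binds GluA2 and the most abundant of this list, was 143.1 ± 5.01 and 144.0 ± 9.79 FPKM (limma adjusted p = 0.987).

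Adarb1, which encodes the enzyme that edits the GluA2 Q/R site, was 17.74, 18.36 and 15.13 FPKM in WT and 19.99, 17.51 and 19.24 FPKM in TG. TG1 and TG3 were the highest libraries and TG2 lay within the WT range. On the log2 scale the difference was 0.15 (SE 0.10, limma adjusted p = 0.789). Adar, the most abundant of the 3 editing enzymes, was 17.54 ± 2.43 and 19.26 ± 0.743 FPKM (limma adjusted p = 0.789). FPKM of Gria2 does not hold the share of edited transcripts, which was not analysed here.

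**Figure D5:**
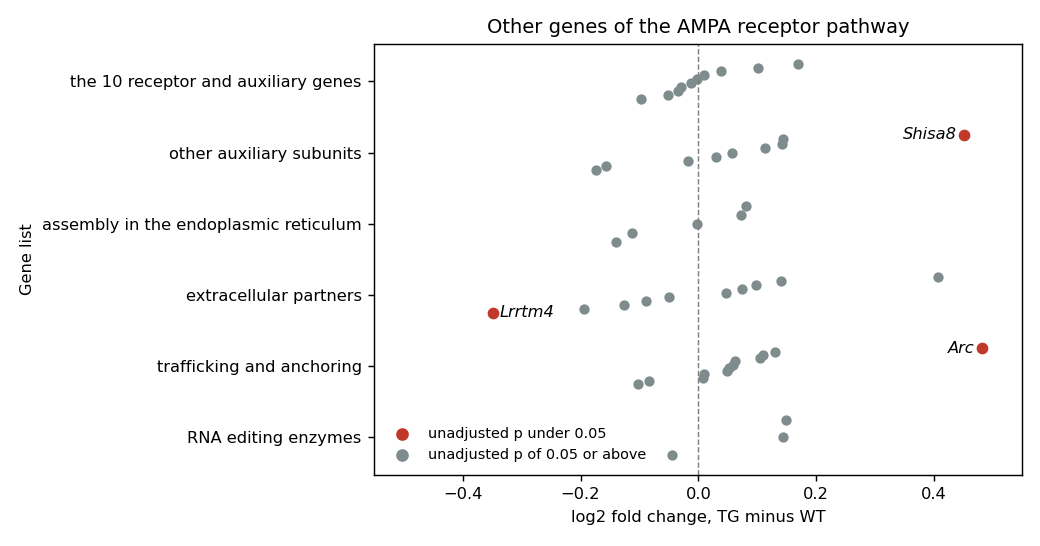
Log2 fold change (TG over WT, log2(FPKM + 0.1) scale) of the 39 other AMPA receptor genes by list, with the 10 receptor and auxiliary genes for comparison. The 3 genes with an unadjusted limma p under 0.05 are Arc, Shisa8 and Lrrtm4, and the 10 receptor and auxiliary genes lie between -0.10 and 0.17.

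The profile over the 6 libraries of each Gria gene was compared with the 48 other genes above, by the root mean square difference of log2 values centred on their 6-library mean. Gria3 was nearest to Frrs1l (difference 0.0221) and so was Gria4 (0.0411). Gria1 was nearest to Gripap1 (0.0583), and Gria2 to Gria1 (0.0706). With 6 libraries these differences are a description, and the nearest gene was closely followed by another for Gria1 (Adarb2, 0.0584) and for Gria2 (Gripap1, 0.0715).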

How the data were processed

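Hippocampal RNA was sequenced in 3 WT and 3 TG libraries. Extraction and library kits differ between the labels and the study's methods. The authors counted reads per gene with HTSeq and deposited FPKM values, normalised to gene length and reads, on GRCm38 (mm10 in the submitters' processing notes). The aligner is not given in the sources used here. Every FPKM value came out as a whole number of reads within 0.05 reads.

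Deposited FPKM were transformed to log2(FPKM + 0.1). TG and WT were compared with limma 3.58.1 in R 4.3.3 (empirical Bayes with a trend on mean expression) over 20952 genes whose FPKM averaged 0.1 or more, with Benjamini-Hochberg adjustment. The procedure was tested on simulated data with planted changes larger than any seen in the AMPA receptor genes and no choroid plexus difference between libraries. This test does not show how well small differences are detected. Shares and ratios were compared by exact two-sided permutation tests. Markers, sequences and summaries used Python 3.11.15 with pandas 2.3.3 and numpy 2.4.6, and figures matplotlib 3.10.9.

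Coordinates are those of the deposited table. 9 of the 10 genes have the same start and end in GENCODE M21. The library titles read Wildtype mice or TG mice with a number, and do not say whether a library came from a single mouse. Libraries were treated as independent, so p-values measure the spread between these samples. Genes were named by rule: the 10 genes, Slc1a2, the most abundant gene of each list, list genes with an unadjusted p under 0.05, and the nearest profile to each Gria gene. Porcn, Prrt2, Neurod6, Prox1, Ttr, Adarb1, Yif1a, A730060N03Rik and Adarb2 were named after their values were seen. So were the pyramidal neuron and interneuron markers given beside Cnih2. The 10 genes and all lists were chosen with earlier results of these data known. Alternatives were other pseudocounts, filters, scalings, variance models, a replicate block, a choroid plexus covariate, limma-voom on recovered reads and leaving out each library. Division by the longest coding transcript, for shares and for the order of levels, and TG3 alone against WT were added after seeing the data.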

Additional observations from a re-analysis of the deposited data

How the results depend on the processing

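The number of the 10 AMPA receptor genes at an adjusted limma p under 0.05 was 0 in all 17 other fits (smallest adjusted p 0.636). At an unadjusted limma p under 0.05 it was 0 to 1 when each library was left out in turn, the 1 being Cacng2 without TG2, and 1 with TG3 alone, which was Cacng3. Cacng2, Cacng3 and Cnih2 did not change sign in any fit, but Cacng3 was 0.0004 without TG3 and Cnih2 was -0.0067 without WT3 and -0.0151 after quantile normalisation. With each library left out in turn their log2 fold changes ran from 0.1125 to 0.2629 (Cacng2), 0.0004 to 0.1937 (Cacng3) and -0.1897 to -0.0067 (Cnih2). The other 7 changed sign in at least 1 fit, and their log2 fold changes were under 0.06 in size in the fit of all libraries. Quantile normalisation gave log2 fold changes of 0.0179 for Gria1, 0.0088 for Gria2 and 0.0206 for Cnih3, the choroid plexus covariate gave 0.0033 for Gria4, and TG3 alone gave -0.0642 for Cacng8. Under the same omissions, log2 fold changes ran from -0.1171 to 0.0433 for Gria1, -0.0915 to 0.0859 for Gria2, -0.0271 to 0.0568 for Gria3, -0.0891 to 0.0013 for Gria4, -0.0952 to 0.1458 for Cacng8, -0.0576 to 0.0536 for Cnih3 and -0.0929 to 0.0697 for Shisa9.

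Differences in share (TG minus WT, percentage points) ran under the same omissions from -0.982 to 0.399 for Gria1, -0.314 to 0.565 for Gria2, -0.0118 to 0.406 for Gria3, -0.234 to 0.0315 for Gria4, -0.855 to 3.0 for Cacng3 and -3.87 to 0.509 for Cacng8. The difference in log2 ratio ran from -0.0636 to 0.025 for Gria1 to Gria2 and from -0.243 to 0.048 for Cnih2 to Cnih3. The differences in the Cacng2 share (0.347 to 0.929) and the log2 ratio of Cacng8 to Cacng2 (-0.209 to -0.0445) kept their sign. The Gria2 difference was -0.0183 by reads not divided by length and -0.0188 per longest coding transcript. The cause of the turns in sign was not tested.

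The count of genes at an adjusted p under 0.05, 2 in the fit of all libraries, was 0 with a pseudocount of 1 or 0.01, without a filter, with the choroid plexus covariate, with limma-voom and with TG3 alone. It was 1 at a mean FPKM of at least 1, 9 without the variance trend, and 0 to 6 when each library was left out, the 6 being without TG1. The unadjusted count of 1238 was 704 with the covariate and 878 to 1375 with a library left out. Among the 39 other receptor genes the count at an unadjusted p under 0.05, 3 of 39, was 1 with TG3 alone and 0 to 4 with a library left out. Deviations of same-numbered WT and TG libraries correlated at 0.0125, 0.0434 and 0.00314. WT1 correlated best with TG1 and WT2 with TG2, whereas WT3 correlated best with TG1 (0.0159). Values this near 0 neither show nor exclude a pairing by replicate number. The replicate block gave 0 genes at the adjusted threshold, 634 higher and 610 lower at the unadjusted one, and 1 of the 39. The printed intervals give the ratios that these libraries allow and are not limits of detection. With 3 libraries a group, small differences may have gone undetected.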
